A study of Homo sapiens with 6 samples.

Results

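The ERBB receptors and their ligands were followed here as 10 genes in MDA-MB-231 cells, a long-established line from a human breast cancer. They were taken from the count table by Ensembl identifier: the receptor genes EGFR, ERBB2 and ERBB3, and the ligand genes AREG, EREG, BTC, TGFA, HBEGF, EGF and NRG1. All 10 were among the 20042 genes of the table, and all 10 passed the filter on low counts that left 12440 genes to test. RNA sequencing compared 3 cultures transfected with siRNA-1, one siRNA directed against ERBBride, with 3 cultures transfected with a control siRNA (siCTRL). The labels give the first group the genotype ERBBride knock down and the second WT, and number biological replicates within each. Not given in the sources used here are the siRNA dose, the harvest time and how the cultures were kept apart, so p-values measure only how these samples spread, which may be technical. A single siRNA sequence stands for the knockdown. The title of the series names the stability of EGFR and an lncRNA, a long transcript that is not translated, and the comparison asks which transcripts differ in cells given siRNA-1.

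ERBB receptors are tyrosine kinases of the cell surface that dimerise when a ligand of the epidermal growth factor family binds, and signal to the RAS and PI3K pathways. AREG, EREG, BTC, TGFA, HBEGF and EGF encode ligands of EGFR, while NRG1 encodes neuregulin, a ligand of ERBB3 and ERBB4. The ligands are made as membrane precursors and released by proteases of the ADAM family. ERBB2 has no known ligand and acts as a partner of the other receptors, and ERBB3 has little kinase activity of its own. MDA-MB-231 is a triple-negative line, which lacks oestrogen and progesterone receptors and ERBB2 amplification, and is known for high EGFR.

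Libraries held between 12813706 and 15014434 counts. CPM are counts scaled to library size, here with TMM factors for the values of genes. Before those factors, 3 counts were worth at most 0.234 CPM. This limit covers counting error only. Values with ± are means and SD of 3 libraries a group. The table had 0 entries named ERBBride, so its knockdown was not checked here. Control library siCTRL 2 stood apart: the SD of its log2 CPM difference over tested genes was 0.313 from siCTRL 1 and 0.333 from siCTRL 3, against 0.231 between siCTRL 1 and siCTRL 3. The line's markers VIM (1676 ± 28.9 CPM in siRNA-1 and 2652 ± 77.9 CPM in siCTRL cells), CD44 and AXL were abundant. SPARC of the same list was scarce (0.839 ± 0.166 CPM in siRNA-1 and 0.418 ± 0.0665 CPM in siCTRL cells). ESR1 averaged 0.115 CPM in siRNA-1 and 0.0228 CPM in siCTRL cells, and PGR was at 0 in all 6 libraries. Markers were called by edgeR at adjusted p under 0.05, where 31% of all genes tested fell and 31.5% rose. Of 8 luminal markers, all 5 that could be tested fell. Their list summed to between 753 and 780 CPM in siRNA-1 and between 1022 and 1065 CPM in siCTRL libraries, mostly through KRT8 and KRT18. Of 7 markers of the mesenchymal line, 5 fell and 1, the scarce SPARC, rose. That list summed to between 3616 and 3750 CPM in siRNA-1 and between 7034 and 7344 CPM in siCTRL libraries. Of tested markers of other cells, the 1 for blood and both for endothelium fell, and of 3 for fibroblasts 1 rose and 1 fell. These lists summed to at most 32.9 CPM in any library, and CD3E, CDH5 and DCN were at 0 in all. Others were not at 0, such as CD14 (7.71 CPM in siRNA-1 and 17.3 CPM in siCTRL cells), KDR (5.15 and 8.56 CPM) and COL1A1 (17.2 and 4.95 CPM). Whether the state that these markers describe has a part in the ERBB values was not tested.

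Transcripts of 9 of the 10 genes were lower in siRNA-1 cells by edgeR's quasi-likelihood test (adjusted p under 0.05 over all 12440 genes), and 0 were higher. The background was high, since 62.5% of all genes tested passed, 31% lower and 31.5% higher. The 9 genes were also those whose 2 groups of libraries did not overlap, all of them lower, where 33% of tested genes were lower and 34.6% higher without overlap. The median log2 fold change of the 10 genes was -0.55, against 0.0059 for all genes tested. Falls of EREG, BTC and AREG were the largest of the 10, at about a 2-fold change, and those of EGFR, ERBB2 and NRG1 were among the smallest. The median absolute log2 fold change of all tested genes was 0.35. EGFR lay at that value, ERBB2, NRG1 and HBEGF below it, and the other 6 genes above it. Of all tested genes, 8.14% fell at least 2-fold, and of the 10 genes EREG and BTC did. These are RNA levels, in which fewer cells with a transcript and less transcript per cell cannot be told apart.

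**Figure D1:**
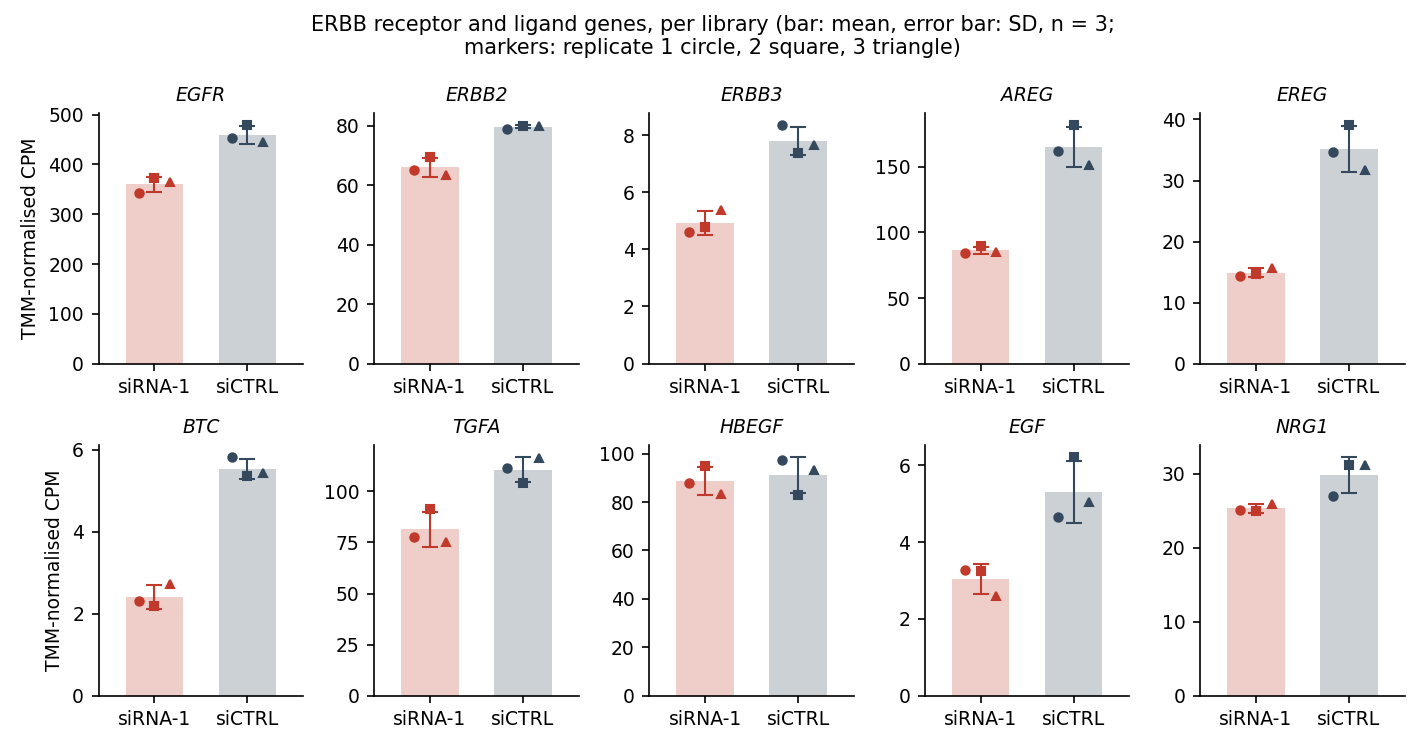
TMM-normalised CPM of each gene in the 3 siRNA-1 libraries (red) and the 3 siCTRL libraries (dark blue); bars are means, error bars SD, and symbols the replicates. The groups are apart in every panel but that of HBEGF.

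**Figure D2:**
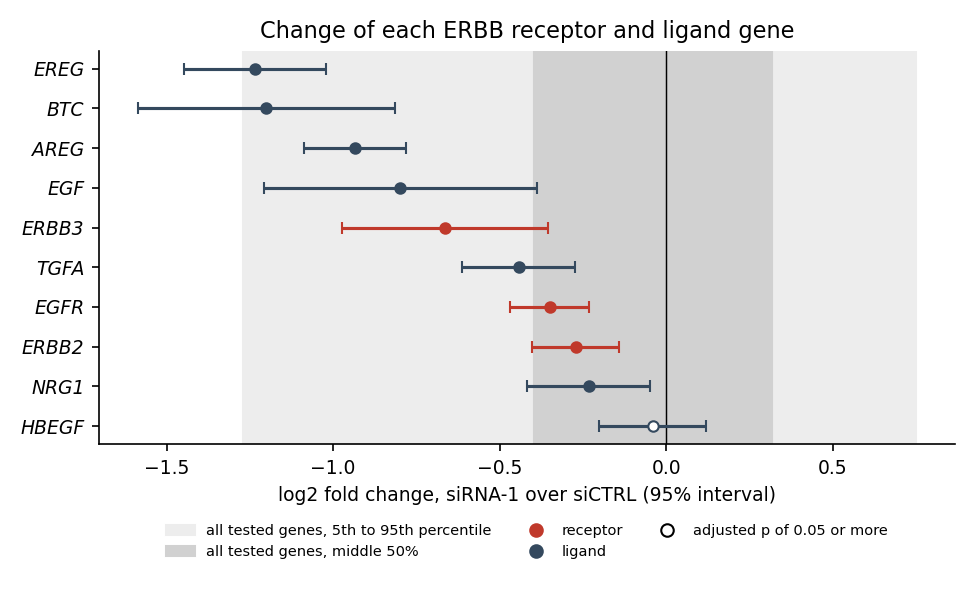
Log2 fold change of siRNA-1 over siCTRL with its 95% interval for receptors (red) and ligands (dark blue); grey bands hold the range from the 25th to the 75th and from the 5th to the 95th percentile of all tested genes. The intervals of EREG, BTC and AREG lie wholly left of the darker band, and that of HBEGF spans 0.

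Among the receptors, EGFR, the receptor of most ligands of the family, read 343, 373 and 364 CPM in siRNA-1 libraries, against 453, 479 and 444 CPM in siCTRL libraries. The highest siRNA-1 library thus lay below the lowest control. EGFR fell 1.27-fold (log2 fold change -0.35, SE 0.0542, 95% interval -0.47 to -0.23, adjusted p = 0.000147, edgeR). ERBB2, the partner receptor without a ligand, read 64.9, 69.5 and 63.2 CPM in siRNA-1 libraries, against 79.0, 79.9 and 79.8 CPM in siCTRL libraries. The controls were close to each other and all above the siRNA-1 libraries. ERBB2 fell 1.21-fold (log2 fold change -0.27, SE 0.0595, adjusted p = 0.00181, edgeR). ERBB3, the receptor of neuregulin, was scarce, with 66, 72 and 79 counts in siRNA-1 libraries and 122, 95 and 103 counts in siCTRL libraries. Those counts were 4.61, 4.77 and 5.38 CPM in siRNA-1 and 8.35, 7.38 and 7.66 CPM in siCTRL libraries, with no overlap. ERBB3 fell 1.58-fold with a wide interval (log2 fold change -0.66, 95% interval -0.97 to -0.36, adjusted p = 0.00147, edgeR). ERBB4, the remaining receptor, had 1 to 4 counts a library and was not tested.

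The ratio of the counts of a pair of genes within a library does not depend on the scaling between libraries. Per count of EGFR there were 0.0137 ± 0.00101 counts of ERBB3 in siRNA-1 and 0.0170 ± 0.00153 in siCTRL cells (SD, n = 3), without overlap (exact two-sided permutation p = 0.1, adjusted over 4 ratios 0.133). The ratio of ERBB2 to EGFR was 0.183 ± 0.0083 in siRNA-1 and 0.174 ± 0.00641 in siCTRL cells, with overlapping libraries (exact permutation p = 0.3, adjusted 0.3). With 3 libraries against 3 the smallest p is 0.1, so this test cannot reach 0.05. EGFR shares 186 of its exonic bases (1.49%) with EGFR-AS1 on the opposite strand. ERBB2 shares 571 bases (5.53%) with MIEN1 and 194 (1.88%) with PGAP3, which both rose (2.04-fold and 1.55-fold). Whether reads were counted by strand is unknown here, so reads from such stretches cannot be told apart.

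The ligand genes with the largest falls lie on chromosome 4. In GENCODE 29 on GRCh38, EREG is annotated there from 74365143 to 74388751 and AREG from 74445134 to 74455009, both on the plus strand. BTC follows on the minus strand from 74744759 to 74794686, and EPGN, a further EGFR ligand, lies ahead of EREG from 74308473 to 74315307. TGFA (chromosome 2, 70447280 to 70554193, minus strand), HBEGF (chromosome 5, 140332843 to 140346631, minus strand) and EGF (chromosome 4, 109912884 to 110012266, plus strand) lie elsewhere. All are protein-coding genes. Promoter windows of 250 bases before and 50 after the start site are shown for AREG, EREG and BTC, the 3 ligand genes that fell most, and for HBEGF, the ligand that did not pass the test. The sequences are RefSeq's on GRCh38.p14, and capitals mark matches to the motifs described after them.
AREG promoter, chr4:74444886-74445185, plus strand: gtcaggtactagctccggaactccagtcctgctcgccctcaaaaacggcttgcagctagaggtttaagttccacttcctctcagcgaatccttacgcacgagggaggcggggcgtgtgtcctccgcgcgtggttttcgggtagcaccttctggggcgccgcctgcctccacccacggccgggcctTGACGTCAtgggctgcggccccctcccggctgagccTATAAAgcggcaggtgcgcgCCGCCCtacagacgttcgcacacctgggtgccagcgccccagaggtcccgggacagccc
EREG promoter, chr4:74364895-74365194, plus strand: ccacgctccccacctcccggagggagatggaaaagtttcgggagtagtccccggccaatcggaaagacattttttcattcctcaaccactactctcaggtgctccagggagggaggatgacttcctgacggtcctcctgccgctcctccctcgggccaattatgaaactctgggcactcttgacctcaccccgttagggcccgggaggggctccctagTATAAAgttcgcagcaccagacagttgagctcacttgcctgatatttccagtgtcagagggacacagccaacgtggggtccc
BTC promoter, chr4:74794474-74794773, minus strand: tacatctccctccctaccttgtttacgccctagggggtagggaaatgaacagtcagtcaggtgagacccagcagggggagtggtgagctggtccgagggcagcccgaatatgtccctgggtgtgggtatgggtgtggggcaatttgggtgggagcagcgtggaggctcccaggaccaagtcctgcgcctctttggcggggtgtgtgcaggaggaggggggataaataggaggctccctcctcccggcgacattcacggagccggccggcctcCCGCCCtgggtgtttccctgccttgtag
HBEGF promoter, chr5:140346554-140346853, minus strand: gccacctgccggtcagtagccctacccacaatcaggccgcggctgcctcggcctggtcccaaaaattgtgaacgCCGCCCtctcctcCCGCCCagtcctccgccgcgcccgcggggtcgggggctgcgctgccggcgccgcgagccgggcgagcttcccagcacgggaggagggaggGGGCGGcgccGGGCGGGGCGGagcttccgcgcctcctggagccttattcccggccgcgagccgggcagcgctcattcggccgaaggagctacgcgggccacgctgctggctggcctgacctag

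Motifs were searched on both strands as TGACGTCA (the cAMP response element), TGANTCA (the AP-1 element), TATAAA (the TATA box) and GGGCGG (the GC box). Overlapping matches were all counted. Of 35116 promoter windows of the same length, 1.85% held the first, 7.71% the second, 11.5% the third and 45% the fourth. AREG and EREG both held a TATA box on their own strand, from base -29 to -24 and from base -32 to -27 of the start site. AREG also held a cAMP response element from base -65 to -58 and 1 GC box. BTC held 1 GC box and none of the other motifs searched, and HBEGF held 5 GC boxes, of which the pair nearest the start share a base, and none of the others. An AP-1 element was in neither of the windows of AREG and EREG. A match describes the letters of the window and no more. Windows were found for 8 of the 10 genes.

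AREG encodes amphiregulin and was the most abundant ligand transcript per length. AREG read 84.6, 89.4 and 84.9 CPM in siRNA-1 libraries, against 162, 182 and 151 CPM in siCTRL libraries. Every siRNA-1 library stood far below every control, and siCTRL 2 was the highest. AREG fell 1.91-fold (log2 fold change -0.93, SE 0.0702, 95% interval -1.09 to -0.78, adjusted p = 4.2e-07, edgeR). EREG, the gene of epiregulin, read 14.4, 14.6 and 15.7 CPM in siRNA-1 libraries, against 34.7, 39.1 and 31.7 CPM in siCTRL libraries. Controls were again in the same order, with siCTRL 2 highest and siCTRL 3 lowest. EREG fell 2.35-fold (log2 fold change -1.23, SE 0.0973, adjusted p = 6.15e-07, edgeR). BTC, the gene of betacellulin, had 33, 33 and 40 counts in siRNA-1 libraries, against 85, 69 and 73 counts in siCTRL libraries, and siCTRL 2 did not stand out (5.36 CPM beside 5.82 and 5.43 CPM). BTC fell 2.30-fold (log2 fold change -1.20, 95% interval -1.59 to -0.82, adjusted p = 9.28e-05, edgeR). EPGN had 0 to 4 counts a library and was not tested.

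TGFA, the gene of transforming growth factor alpha, read 77.7, 91.4 and 75.2 CPM in siRNA-1 libraries, against 112, 104 and 116 CPM in siCTRL libraries. The siRNA-1 libraries spread more than the controls, and the groups did not overlap. TGFA fell 1.36-fold (log2 fold change -0.44, SE 0.0776, adjusted p = 0.000371, edgeR). EGF, the ligand that names the family, was scarce, with 47, 49 and 38 counts in siRNA-1 libraries and 68, 80 and 68 counts in siCTRL libraries. EGF fell 1.74-fold with the widest interval of the 10 genes (log2 fold change -0.80, 95% interval -1.21 to -0.39, adjusted p = 0.00291, edgeR).

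HBEGF encodes heparin-binding EGF-like growth factor and was the 1 gene of the 10 that did not pass. HBEGF read 87.7, 94.8 and 83.2 CPM in siRNA-1 libraries, against 97.2, 82.7 and 93.1 CPM in siCTRL libraries. The groups overlapped, with siCTRL 2 the lowest of all 6 libraries. The log2 fold change was -0.04 (SE 0.0735, adjusted p = 0.655, edgeR), and its 95% interval of -0.20 to 0.12 corresponds to between 0.87 and 1.09 times the level in siCTRL cells. Without siCTRL 2 the log2 fold change of HBEGF was -0.12 and it passed (adjusted p = 0.0483, within 0.0483 to 0.987 over the alternatives run). NRG1, the gene of neuregulin, read 25.1, 24.9 and 26.0 CPM in siRNA-1 libraries, against 27.0, 31.1 and 31.2 CPM in siCTRL libraries. Its groups stood apart by a small gap between the highest siRNA-1 library and siCTRL 1. NRG1 fell 1.17-fold (log2 fold change -0.23, 95% interval -0.42 to -0.05, adjusted p = 0.03, edgeR), a call lost in 7 of 14 alternatives. Those included leaving out siRNA-1 1, 2 or 3 (adjusted p = 0.0907, 0.0967 and 0.0603, edgeR) or siCTRL 3 (0.0903), and a correction for GC content and length, which left a log2 fold change of -0.10. Of the other neuregulins, NRG2 was tested and missed the threshold (adjusted p = 0.878, log2 fold change -0.04, edgeR). NRG4 had 0 to 3 counts a library, and NRG3 had 0 counts in every library, which allows up to 0.234 CPM.

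Within libraries the ligands moved relative to each other. The count ratio of HBEGF to AREG was 1.04, 1.06 and 0.98 in siRNA-1 libraries, against 0.60, 0.455 and 0.615 in siCTRL libraries. It was thus 1.86-fold higher in siRNA-1 cells, with no overlap (exact two-sided permutation p = 0.1, the smallest that 3 against 3 libraries allow, adjusted 0.133). The ratio of EREG to AREG was 0.17, 0.164 and 0.185 in siRNA-1 libraries, against 0.214, 0.215 and 0.209 in siCTRL libraries. EREG was thus 1.23-fold lower relative to AREG in siRNA-1 cells, also with no overlap (exact permutation p = 0.1, adjusted 0.133).

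Levels of different genes were compared per length as TPM, computed here from counts per base of merged exons, within a library and without TMM factors. Exon lengths came from GENCODE 29, an older release than the one counted with, since all 10 genes carry later identifier versions in the table, and the effect on levels and shares was not tested beyond the longest-transcript length. In siRNA-1 cells AREG was highest (205 ± 6.18 TPM), followed by HBEGF (115 ± 6.92 TPM) and EGFR (113 ± 5.36 TPM), which did not differ beyond their spread. TGFA (64.4 ± 6.63 TPM), ERBB2 (25.04 ± 1.13 TPM) and EREG (10.2 ± 0.6 TPM) came next. NRG1 (8.77 ± 0.282 TPM), BTC (3.35 ± 0.428 TPM), ERBB3 (2.14 ± 0.2 TPM) and EGF (1.94 ± 0.232 TPM) were lowest, and the last pair overlapped. In siCTRL cells AREG was again highest (377 ± 51.7 TPM), but EGFR (138 ± 11.3 TPM) stood above HBEGF (113 ± 6.07 TPM) in every library. TGFA (83.5 ± 1.04 TPM), ERBB2 (28.9 ± 1.31 TPM), EREG (23.1 ± 3.45 TPM), NRG1 (9.87 ± 0.984 TPM) and BTC (7.37 ± 0.364 TPM) followed. EGF (3.26 ± 0.63 TPM) and ERBB3 (3.23 ± 0.185 TPM) could not be told apart in siCTRL cells. With the length of the longest transcript in place of merged exons, NRG1 (12.3 TPM) stood above EREG (9.33 TPM) in siRNA-1 cells.

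The 7 ligand genes summed to 398, 431 and 399 TPM in siRNA-1 libraries, against 609, 673 and 568 TPM in siCTRL libraries, as parts of each library's own total. Per TPM of EGFR this was 3.73, 3.70 and 3.46 TPM of ligand transcripts in siRNA-1 libraries and 4.54, 4.48 and 4.43 in siCTRL libraries, with no overlap. AREG held 50.2% ± 0.965 of the summed ligand level in siRNA-1 cells and 60.9% ± 3.13 in siCTRL cells. HBEGF held 28.1% ± 0.641 in siRNA-1 cells and 18.4% ± 2.09 in siCTRL cells, and TGFA held 15.7% ± 0.895 in siRNA-1 cells and 13.6% ± 1.31 in siCTRL cells. EREG (2.51% ± 0.208 in siRNA-1 and 3.74% ± 0.236 in siCTRL cells), BTC (0.823% ± 0.13 in siRNA-1 and 1.20% ± 0.0772 in siCTRL cells) and NRG1 (2.15% ± 0.141 in siRNA-1 and 1.603% ± 0.152 in siCTRL cells) held small shares. EGF held 0.475% ± 0.0527 in siRNA-1 and 0.527% ± 0.0648 in siCTRL cells. The libraries of the groups overlapped for EGF and for no other ligand, with HBEGF, TGFA and NRG1 higher and AREG, EREG and BTC lower in siRNA-1 cells. The shares are parts of one whole, so a lower share of AREG leaves larger shares to others. By edgeR, TGFA and NRG1 themselves fell (log2 fold change -0.44 and -0.23), and HBEGF did not pass. These shares are a description without a test, and a transcript level does not give the amount of ligand released.

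**Figure D3:**
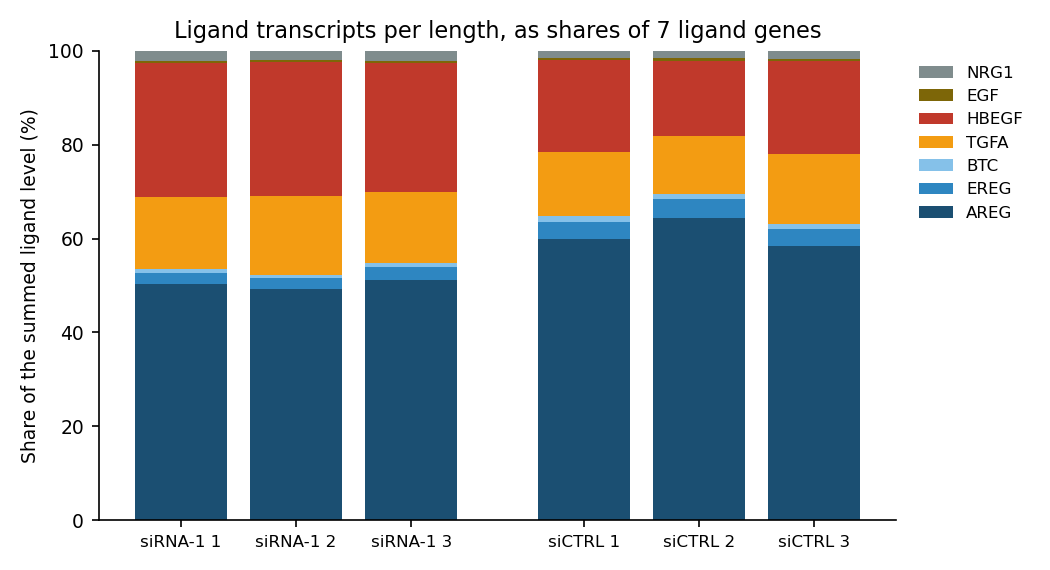
Share of each ligand gene in the summed ligand level per length, in percent, for the 3 siRNA-1 and the 3 siCTRL libraries. AREG lies between 49.2% and 51.2% in siRNA-1 and between 58.4% and 64.4% in siCTRL libraries, while HBEGF takes the larger share in siRNA-1 libraries.

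Genes near the 10 members moved in both directions, with positions given by start sites within 250 kb. EREG and AREG start 79.99 kb apart, and each is the other's 1 tested neighbour. The 1 tested neighbour of BTC, PARM1, rose (log2 fold change 0.46, adjusted p = 0.00925, edgeR). Around ERBB2, which fell, 4 of 9 tested neighbours rose and 2 fell. Among the nearest, toward higher coordinates, were PGAP3, a lipid-remodelling enzyme of GPI anchors that starts 8.88 kb away (log2 fold change 0.63, adjusted p = 0.0012, edgeR), and MIEN1 (1.03, adjusted p = 2.36e-06). On the other side TCAP, a muscle sarcomere gene at low counts here (2.06, adjusted p = 0.000197), and STARD3, a cholesterol-binding protein of endosomes (0.55, adjusted p = 3.71e-06), rose. GRB7, the adaptor gene often amplified with ERBB2 in breast cancer, did not pass (0.06, adjusted p = 0.803). Around ERBB3, 10 of 23 tested neighbours rose and 5 fell, and around HBEGF 3 of 8 rose and 3 fell. EGFR and NRG1 had 0 genes of the table within that distance. These counts stand beside 31.5% of all genes tested that rose and 31% that fell.

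**Figure D4:**
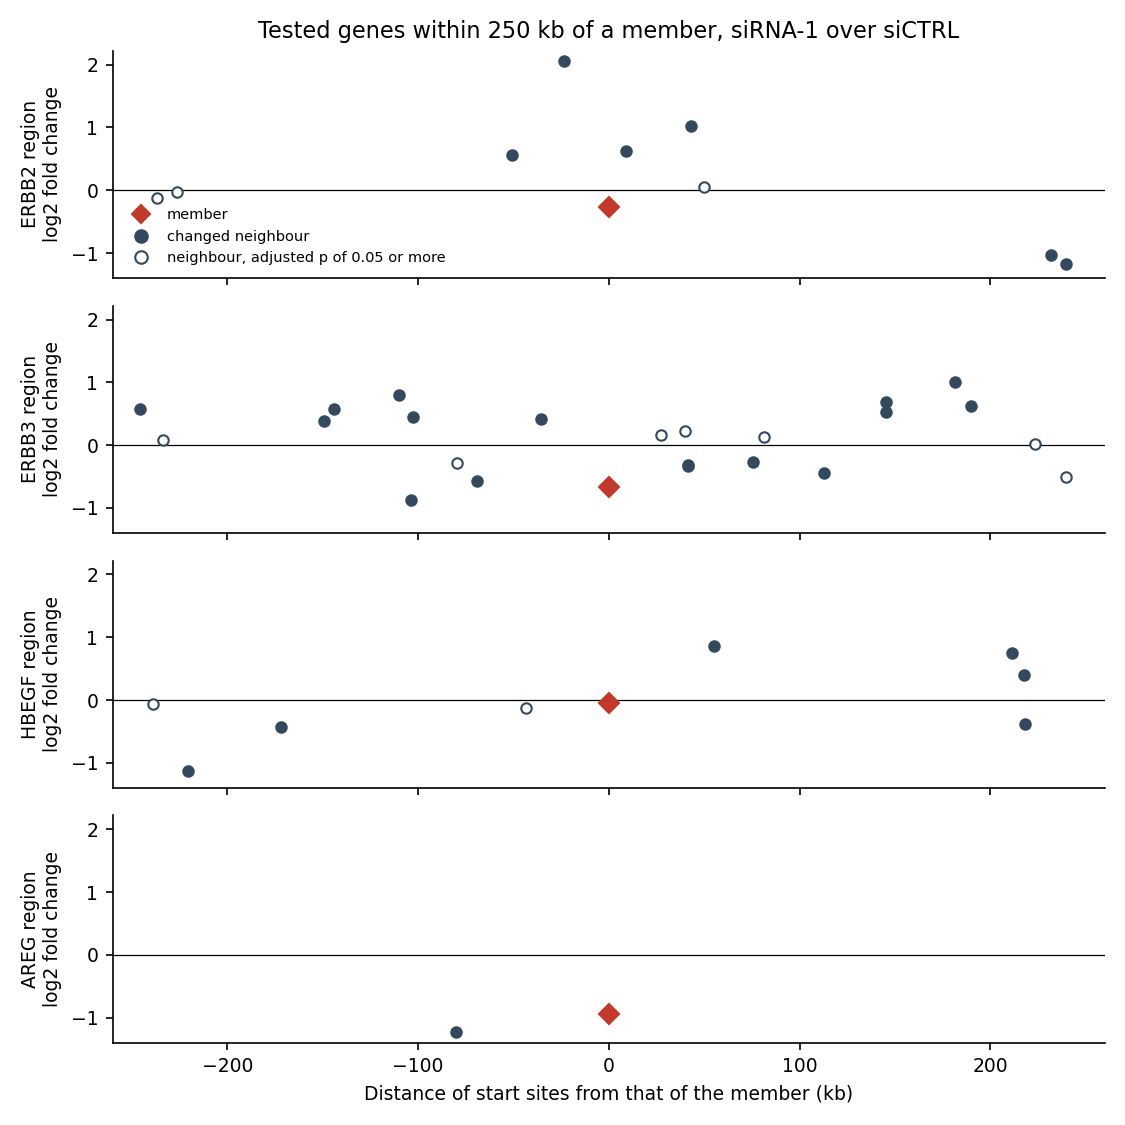
Log2 fold change of siRNA-1 over siCTRL for tested genes around ERBB2, ERBB3, HBEGF and AREG (red diamonds), by distance of start sites in kb along the chromosome; filled circles are neighbours that passed the test. Neighbours of ERBB2 and ERBB3 lie on both sides of 0, and EREG is the 1 tested neighbour of AREG.

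A 7-base sequence, GCTCACT, was searched in the longest annotated 3' UTR of each gene, because it had been picked earlier as common in transcripts that fell in these same data. It was found in 36.4% of tested genes that fell at least 2-fold and in 17.2% of the others, a contrast that its choice fixes. Of the 10 genes 3 carried it, against 18.8% of all tested genes: EGFR, EREG and NRG1. The match of EGFR, the receptor gene among them, is shown with the 7 bases in capitals and starts at base 4480 of the 3' UTR. AREG, BTC and HBEGF did not carry it, with 3' UTRs of 269, 1918 and 1456 bases. Those of EGFR, EREG and NRG1 were 6011, 3943 and 3557 bases long, and that of TGFA, without a match, 3579 bases. A longer 3' UTR gives more room for a match, and the shares given were not adjusted for length.
EGFR 3' UTR match: aatggaaaggGCTCACTgttgttacta

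By profile over the 6 libraries, the genes most like EGFR were the kinesin gene KIF1B, the matrix gene THBS1 and the clock gene BMAL2. Likeness was the root mean square difference of log2 CPM centred on each gene's mean, among 12439 other tested genes, and was 0.024, 0.0267 and 0.03 for these. MPZL1, FSCN1 and GNAS were most like ERBB2 (0.0134, 0.0155 and 0.0246). ZCCHC24, SYNJ2BP and RPS6KC1 were most like AREG (0.0384, 0.0405 and 0.0432), and MYO5C, OTULINL and MOB1B most like EREG (0.0479, 0.0493 and 0.0522). RAB2A, HSDL1 and POLR1D were most like HBEGF (0.0278, 0.0322 and 0.0347). EREG was not among the 3 genes most like AREG, nor AREG among those most like EREG. This measure depends on the size of the change, which differed for AREG (log2 fold change -0.93) and EREG (-1.23). It therefore does not show whether AREG and EREG vary together.

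Genes that act beside the receptors and ligands split in direction, as did all genes tested, of which 31.5% rose and 31% fell. Of 24 tested genes of ligand shedding and transport, 8 rose, 9 fell and 7 missed the threshold, with a median log2 fold change of -0.07. BACE1, a protease that cleaves neuregulin and the amyloid precursor, fell 2.11-fold to 49.0 ± 3.51 CPM in siRNA-1 cells, against 103 ± 6.72 CPM in siCTRL cells (adjusted p = 1.87e-07, edgeR). MAGI1, a scaffold of cell junctions, fell 1.84-fold (adjusted p = 9.83e-07). NRDC, a peptidase that promotes the shedding of HB-EGF, rose 1.41-fold to 440 ± 10.3 CPM in siRNA-1 cells, against 312 ± 6.23 CPM in siCTRL cells (adjusted p = 3.78e-06). GORASP1, a stacking protein of the Golgi, rose 1.42-fold (adjusted p = 1.71e-05). ADAM17, the main sheddase of AREG, EREG, TGFA and HBEGF in mouse cells, did not pass (81.9 ± 1.22 CPM in siRNA-1 and 75.8 ± 3.66 CPM in siCTRL cells, adjusted p = 0.12). ADAM10, the main sheddase of BTC and EGF in mouse cells, fell 1.15-fold (adjusted p = 0.0112, edgeR).

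Of 32 tested adaptors and proximal effectors, 14 rose, 10 fell and 8 missed the threshold, with a median log2 fold change of 0.12. Subunits of PI3-kinase on this list moved in both directions. Of the catalytic subunits, PIK3CD fell 4.68-fold and PIK3CA 1.98-fold, and PIK3CB did not pass (56.2 ± 1.61 CPM in siRNA-1 and 52.7 ± 1.98 CPM in siCTRL cells, adjusted p = 0.21, edgeR). Of the regulatory subunits, PIK3R1 rose 1.81-fold and PIK3R3 2.20-fold. PIK3R2 had 0 counts in every library, which allows up to 0.234 CPM by counting error alone, and was not tested. Whether its reads were lost when reads were assigned to genes is unknown here, so 0 counts do not show that PIK3R2 is absent. PIK3CD averaged 6.16 ± 0.574 CPM in siRNA-1 and 28.9 ± 2.66 CPM in siCTRL cells (adjusted p = 2.01e-08, edgeR). PIK3CA averaged 22.7 ± 1.18 CPM in siRNA-1 and 45.1 ± 2.83 CPM in siCTRL cells (adjusted p = 7.6e-07). PIK3R1 averaged 42.1 ± 1.83 CPM in siRNA-1 and 23.3 ± 1.9 CPM in siCTRL cells (adjusted p = 3.07e-06), and PIK3R3 averaged 16.3 ± 0.945 CPM in siRNA-1 and 7.36 ± 1.12 CPM in siCTRL cells (adjusted p = 9.89e-06). The docking protein gene GAB2 fell 1.72-fold (adjusted p = 7.93e-06), and GRB2, the adaptor that links receptors to RAS activation, rose 1.28-fold (adjusted p = 0.000375, edgeR).

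Of 28 tested direct regulators of the receptors, 11 rose, 9 fell and 8 missed the threshold, with a median log2 fold change of -0.06. ERRFI1, a feedback inhibitor of EGFR kinase, fell 3.61-fold to 162 ± 9.55 CPM in siRNA-1 cells, against 583 ± 27.4 CPM in siCTRL cells (adjusted p = 1.05e-09, edgeR). LRIG1, a membrane inhibitor of ERBB receptors, fell 3.05-fold to 13.7 ± 0.702 CPM in siRNA-1 cells, against 41.8 ± 9.19 CPM in siCTRL cells (adjusted p = 1.4e-06). CD82, a tetraspanin that dampens EGFR signalling, fell 1.66-fold to 138 ± 1.38 CPM in siRNA-1 cells, against 230 ± 9.2 CPM in siCTRL cells (adjusted p = 2.96e-07). CDC37, which brings kinases to HSP90, rose 1.42-fold to 384 ± 5.93 CPM in siRNA-1 cells, against 270 ± 2.15 CPM in siCTRL cells (adjusted p = 2.66e-06). RNF41, a ubiquitin ligase that acts on ERBB3, rose 1.44-fold (adjusted p = 0.000991, edgeR). Shares of genes that passed were 70.8%, 75% and 71.4% in these 3 lists, against 62.5% of all genes tested, and 90% of the ERBB genes.

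**Figure D5:**
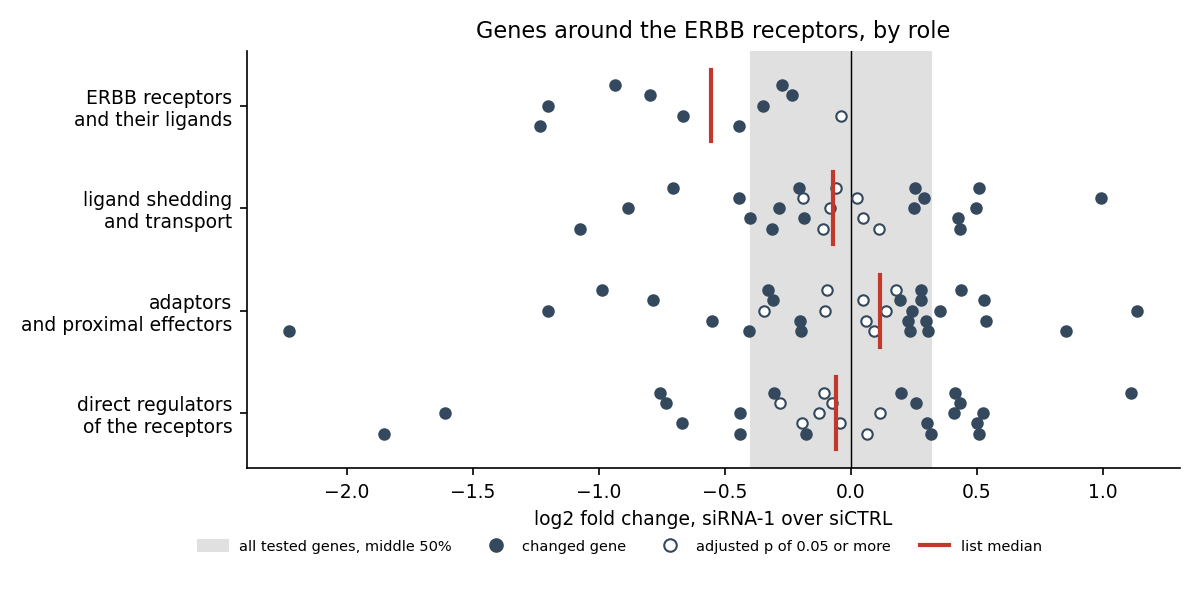
Log2 fold change of siRNA-1 over siCTRL for each tested gene of the ERBB genes and of 3 lists by role; red lines are list medians and the grey band runs from the 25th to the 75th percentile of all tested genes. The ERBB genes lie at or left of 0, and the other lists spread to both sides.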

How the data were processed

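Total RNA of 3 siRNA-1 and 3 siCTRL cultures was made into NEBNext Ultra libraries and sequenced, per the labels' protocols. The deposited table gives raw counts per Ensembl gene, made by the authors with HTSeq on hg38 (GRCh38), per the submitters' processing notes, which also name Trimmomatic, STAR and kallisto. Not given in the sources used here: their versions, the exact annotation release, the strand setting and the use of kallisto. All 20042 genes matched a symbol, and 19847 had a position in GENCODE 29, which gave positions and exon lengths. Of the tested genes, 12121 carry a later identifier version in the table than in GENCODE 29 and 297 the same, so the counts were made with a later release.

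Counts were tested with edgeR 4.0.16 in R 4.3.3: filterByExpr (minimum count 10, minimum total 15), TMM scaling, a two-sided quasi-likelihood F test between the 2 groups without covariates, Benjamini-Hochberg adjustment over 12440 genes and a threshold of 0.05. SE came from the fold change and F. Log2 CPM used a prior count of 2. The steps were tested on simulated counts in which far fewer genes changed than passed here. That test therefore does not cover the scaling or the rate of false calls under changes as wide as these. Levels per length, ratios and shares were computed from raw counts.

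The members and lists were chosen with earlier results of these data known. Named genes were the 10 members, their 5 relatives, the 4 genes with the smallest adjusted p of each list, the 3 most alike in profile and the nearest neighbours. Chosen after their values were seen were ADAM17, ADAM10, GRB2, PIK3CB, PIK3R2, PIK3R3, RNF41, GRB7, PARM1, the counts of neighbours of further genes and the marker genes named. Alternatives were DESeq2 1.42.0 size factors and Wald test, library size only, no filter, a mean of at least 100 counts, limma-voom (limma 3.58.1), the replicate number as a block, each library left out, a threshold of 0.01 and, chosen after seeing the data, a correction for GC content and length (loess, span 0.4).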

Additional observations from a re-analysis of the deposited data

How the results depend on the processing

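Under 14 alternatives run for each gene, EGFR, ERBB2, ERBB3, AREG, EREG, BTC, TGFA and EGF fell and passed wherever they were tested. ERBB3, BTC and EGF had under 100 counts on average and were not tested at that minimum, which left 6 ERBB genes called. The count of ERBB genes that fell was otherwise 8 to 10 (10 without siCTRL 2, 8 at a threshold of 0.01), and 0 rose under any setting. NRG1 lost its call in 7 alternatives, which also included library size only (log2 fold change -0.20, adjusted p = 0.066) and the DESeq2 Wald test (-0.24, adjusted p = 0.0554). HBEGF, not called with all libraries, had a log2 fold change of 0.0098 after the GC and length correction, and between -0.12 and 0.0071 with each library left out. Without siCTRL 2 the prior degrees of freedom of edgeR were 74.3, against 7.69 with all libraries, so that p-values of that fit draw more on other genes. Leaving out 1 library moved the log2 difference of the ratio of HBEGF to AREG between 0.75 and 0.97. The share of AREG in siRNA-1 cells was 51.7% with the longest transcript.

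Deviations of same-numbered libraries from their group means were little correlated (0.0669, -0.0782 and -0.0571 over tested genes for numbers 1, 2 and 3). Libraries of different numbers gave correlations between -0.0954 and 0.115. With 3 libraries a group, such values cannot tell whether a number marks a shared day or batch. With the replicate block 3804 genes rose and 3731 fell, against 3921 and 3851 without it, and 9 ERBB genes fell. Genes with few counts (ERBB3, BTC, EGF) have the widest intervals.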
